A study of Aquilaria sinensis with 2 samples.

Results

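Calcium-dependent protein kinases (CDPKs) were followed in stems of *Aquilaria sinensis*, the tree that forms agarwood after wounding. The family was taken as 6 unigenes (assembled transcript sequences), chosen by identifier from the study's annotation of candidate regulators and its primer list, out of 89137 unigenes in all. Of these, 5 carry the CDPK names of the study's primer list. CDPK1 is Zhang_Cluster57215.seq.Contig1, CDPK2 is Zhang_Cluster58835.seq.Contig1, CDPK3 is Zhang_Cluster53662.seq.Contig1, CDPK5 is Zhang_Cluster60806.seq.Contig3 and CDPK6 is Zhang_Cluster51236.seq.Contig1. The remaining one, Zhang_Cluster55973.seq.Contig1, has no primers there and is called the CPK2 match, after its closest annotated protein. The label of the family rests on this annotation, since the deposited tables hold no sequences.

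The 2 cDNA libraries were pyrosequenced on the GS-FLX, 1 from healthy stems (H) and 1 from wounded stems (W) of 3-year-old planted trees, with no other treatment or genotype named. For W, stem tissue was collected 6 cm under a knife cut at 2, 4, 6, 8, 12 and 24 h and at 3 and 5 d, then mixed in equal parts, so that no time can be read apart. The number of trees in either pool is not given in the sources used here. The summed counts were 432265 reads in H and 423466 in W. With 1 library per condition, every test below compares 2 libraries and has no replicate check, and its intervals cover counting error only. In a pool of whole stems, fewer cells of a type and less RNA per cell cannot be told apart, and markers of stem tissue were not checked, since the deposited tables carry no annotation.

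A CDPK is a single protein that joins a serine/threonine kinase domain to a calmodulin-like domain with calcium-binding EF hands, so that it senses calcium and phosphorylates targets by itself. Calcium rises in the cytosol of plant cells soon after wounding or attack, and members of the family pass this signal on to NADPH oxidases, ion channels, transcription factors and enzymes of hormone synthesis. Members differ in calcium sensitivity, location and substrates. Of the 6 unigenes, 4 were matched by the study to a named kinase of another species. CDPK1 was described as CPK4 of potato, though the protein identifier listed beside that description may be of another species, which was not tested, and the CPK2 match as CPK2 of rice. CDPK2 was matched to *Arabidopsis* CPK32, which is known there to phosphorylate an abscisic acid-responsive transcription factor, and CDPK6 to *Arabidopsis* CPK10, known there for calcium-dependent stomatal closure under drought. CDPK3 and CDPK5 have no such match in the annotation used here.

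The 3 members on which the results turn most, CDPK6, CDPK5 and CDPK1, are shown by the primer pairs that the study designed for them, since these are the only bases of the members shown in the sources used here. They are written 5′ to 3′ in lower case throughout, with no part set apart.
CDPK6 forward: gtcattacagtgagcgagcgg
CDPK6 reverse: gtgatactttacattttgctgtgcg
CDPK5 forward: ggtctaaaagaaatgttcaaggcaa
CDPK5 reverse: gtgaggaacatcttgtagcagcat
CDPK1 forward: ccatttctaaagataggcttgtgac
CDPK1 reverse: aaaatcctcaacttcttcaatcaag

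The 10 primers of the 5 named members were 20 to 25 bases long with 32.0% to 60.0% G and C. The longest run that primers of different members shared, compared as written, was 7 bases. Whether the CDPK5 primers match only its own unigene was not tested.

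CDPK6 and CDPK5 took a smaller share of the reads in W than in H, by 6.12-fold and 2.38-fold. CDPK1 and CDPK2 had more reads in W and CDPK3 and the CPK2 match fewer, and none of these 4 passed the test. Of the 6 members, 2 were lower in W, 0 were higher and 4 did not pass, by Pearson's chi-square test on the reads at P of 0.01 or less, the test and threshold of the study's methods. Fisher's exact test gave the same 2 and 0 at 0.01. By the chi-square rule 2.55% of all 89137 unigenes were called lower and 1.84% higher. The study counted far more unigenes as differentially expressed, among them all that it found in a single library, so these shares do not reproduce its count. The test depends on the number of reads, and all 6 members had many, from 29 to 89 over both libraries, which is more than 93.8% to 98.6% of all unigenes had. Among the 16684 unigenes with at least 10 reads the shares were 11.5% and 7.78%, and among the 4362 unigenes with 29 to 89 reads they were 18.9% and 10.0%. The count of 2 in 6 members stands against this share of 18.9%. The study's discussion describes the regulators it selected for real-time PCR as differentially expressed, while its results call them expressed regulators. So far as members were selected from these libraries in that way, their count is not independent of the data, and no conclusion is drawn from it. At an unadjusted P under 0.05 the members' counts were 3 lower and 1 higher, where 5.89% of all unigenes were lower and 6.63% higher, and 22.7% and 17.1% of those with 29 to 89 reads. Of the unigenes with 29 to 89 reads 44.7% had a ratio below 1, as had 4 of the 6 members.

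**Figure D1:**
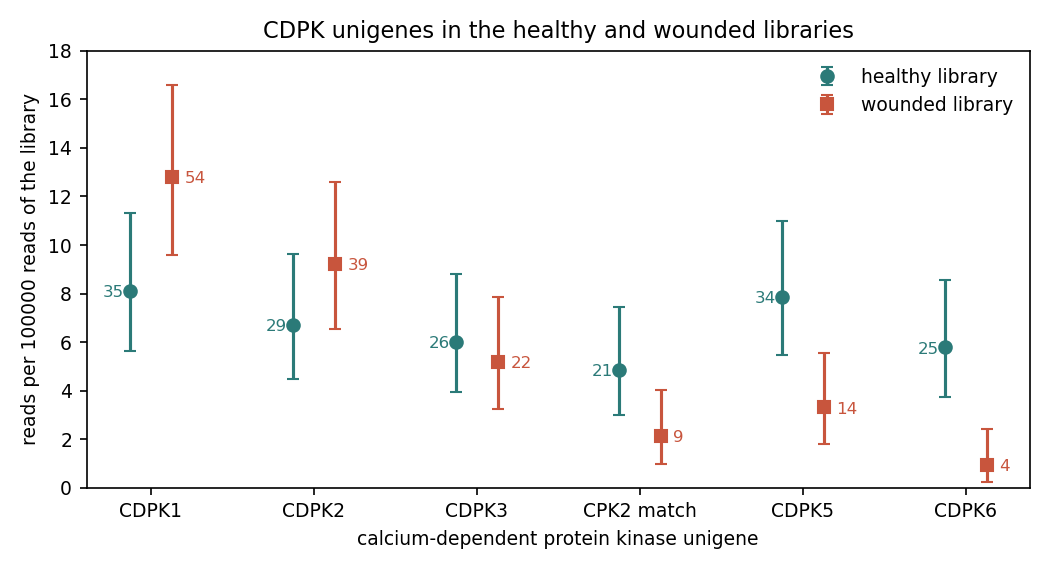
Reads of each CDPK unigene per 100000 reads of the library (y axis) in the healthy library (circles) and the wounded library (squares). Bars are exact 95% binomial intervals, the printed numbers are the read counts, and the H and W intervals of CDPK6 do not overlap (3.74 to 8.54 and 0.257 to 2.42).

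CDPK6, the match to CPK10, showed the greatest difference. Its reads numbered 25 in the healthy library and 4 in the wounded one, that is 5.78 and 0.945 per 100000 reads. H is the high library, and the exact 95% intervals of these shares do not overlap. By the chi-square test its share fell 6.12-fold from H to W, between 2.11 and 24.2 at 95%, with P = 0.000121. It was the one member that also passed after Benjamini-Hochberg adjustment over all unigenes (adjusted P = 0.00808 from the chi-square test), a rule that called 1.16% of all unigenes lower and 0.381% higher. A ratio as low as that of CDPK6 or lower was found in 6.6% of the unigenes with at least 10 reads.

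CDPK5 was lower in W by the unadjusted test alone. Its 48 reads divided into 34 healthy and 14 wounded, which is 7.87 and 3.31 per 100000. The share fell 2.38-fold by the chi-square test, between 1.24 and 4.80 at 95%, with P = 0.00487. H is again the high library, and the intervals of the 2 shares overlap narrowly, with H beginning at 5.45 and W ending at 5.55. Of its 48 reads 14 in W was the highest number that could still pass, so 1 read moved from H to W would have ended the call. After adjustment over all unigenes it did not pass (adjusted P = 0.147 from the chi-square test).

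The CPK2 match had a ratio near that of CDPK5 but fewer reads, and it did not pass. Its reads were 21 in H and 9 in W, or 4.86 and 2.13 per 100000. The ratio of W to H was 0.438, and the 95% interval of 0.176 to 0.996 ended just under 1 (P = 0.0328, chi-square test). Of its 30 reads at most 7 in W would have passed. By size alone, CDPK6, CDPK5 and the CPK2 match were at least 2-fold lower in W and 0 members were at least 2-fold higher, where 20.1% and 20.6% of the unigenes with at least 10 reads were.

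CDPK1, described as potato CPK4 and the most abundant member over both libraries, had more reads in W. Of its reads 35 were healthy and 54 wounded, or 8.10 and 12.8 per 100000. The ratio of W to H was 1.57, between 1.01 and 2.48 at 95% (P = 0.0348, chi-square test), and of its 89 reads 57 in W would have been needed to pass. Over the 16286 unigenes found in both libraries and having 10 or more reads the median ratio was 1.12, and relative to that middle the ratio of CDPK1 was 1.40.

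CDPK2, the match to *Arabidopsis* CPK32, had 29 healthy and 39 wounded reads, which is 6.71 and 9.21 per 100000. Its ratio was 1.37, between 0.827 and 2.30 at 95% (P = 0.194, chi-square test). CDPK3 had 26 and 22 reads, or 6.01 and 5.20 per 100000, and its ratio was 0.864, between 0.467 and 1.59 at 95% (P = 0.613, chi-square test). Both intervals span 1, and they also hold a rise to 2.30 for CDPK2 and a drop to 0.467 for CDPK3.

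**Figure D2:**
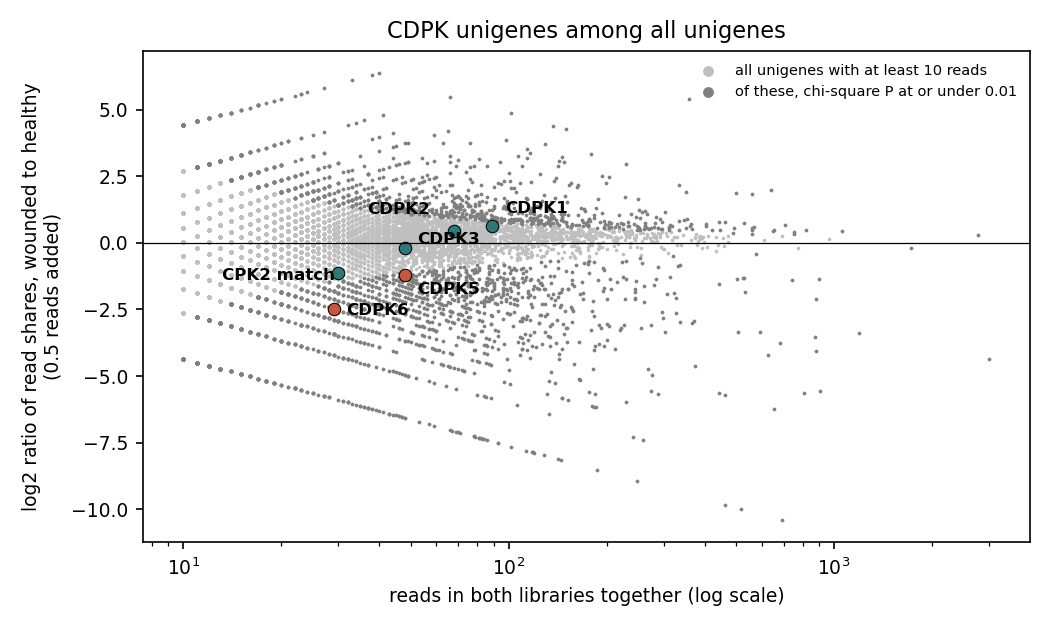
Log2 ratio of read shares, wounded to healthy with 0.5 reads added (y axis), against the reads of both libraries together on a log scale (x axis) for every unigene with at least 10 reads (light grey) and for those with a chi-square P of 0.01 or less (dark grey). The CDPK unigenes are the large points, those past the threshold in red (CDPK5 at -1.22 and CDPK6 at -2.47) and the others in green, and all 6 lie inside the cloud of other unigenes.

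Several members differed from each other in how their reads were divided between the libraries. A comparison of 2 members within the same libraries does not depend on the library sizes, so an odds ratio with an exact interval was computed for each of the 15 pairs. It estimates the ratio of W to H reads of one member divided by that of the other. The estimate is by conditional maximum likelihood, so it differs slightly from the plain quotient of the counts. The 95% interval lay above 1 in 7 pairs, and the wider interval that holds over 15 pairs (99.67%) in 3. CDPK1 against CDPK6 gave 9.46 (1.86 to 92.1 over 15 pairs) and CDPK2 against CDPK6 gave 8.23 (1.55 to 82.1). CDPK1 against CDPK5 gave 3.71 (1.17 to 12.99), but with the reads of the CDPK5 cluster summed it gave 2.47 with an interval that spans 1 (0.986 to 6.39). CDPK1 and CDPK2 did not separate from each other, at 1.15 with a 95% interval of 0.574 to 2.29. CDPK5 and CDPK6, both lower in W, did not either, at 2.54 with a 95% interval of 0.687 to 11.9.

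Together the 6 members had 170 reads in H and 142 in W, that is 39.3 and 33.5 per 100000 reads, a ratio of 0.853 with an exact 95% interval of 0.677 to 1.07. The interval spans 1 with the summed counts as library size and lies below it with 2 scalings that set the middle of the unigenes equal between the libraries, by the median ratio (0.603 to 0.955) or by the trimmed mean of M values, TMM (0.590 to 0.933). These scalings shift every log2 ratio by -0.17 and -0.20. With the library sizes of the deposited RPM values, 530438 reads in H and 543033 in W, the interval spans 1 (0.648 to 1.026). With the summed counts it lies below 1 when CDPK1 is left out (0.503 to 0.877) or CDPK2 is (0.573 to 0.968). Both had more reads in W, so leaving either out can only lower the ratio. The interval spans 1 without CDPK6 (ratio 0.9715, 0.764 to 1.235) or CDPK5 (0.961, 0.749 to 1.232). It also spans 1 without the CPK2 match (0.911, 0.716 to 1.159) or CDPK3 (0.851, 0.662 to 1.091). In H each member held between 12.4% and 20.6% of these reads. In W CDPK1 held 38.0% (95% interval 30.0% to 46.5%), against 20.6% in H (14.8% to 27.5%). Such shares are tied to each other, so that of CDPK1 also grows where other members lose reads. Against all reads of the library CDPK1 did not pass (P = 0.0348, chi-square test). CDPK6 held 2.8% in W (0.8% to 7.1%) against 14.7% in H (9.7% to 20.9%). CDPK3 held 15.3% in H and 15.5% in W. As a description, CDPK1 and CDPK2 together went from 37.6% in H to 65.5% in W, and CDPK5 and CDPK6 together from 34.7% to 12.7%, pairs that were formed after their values were seen.

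**Figure D3:**
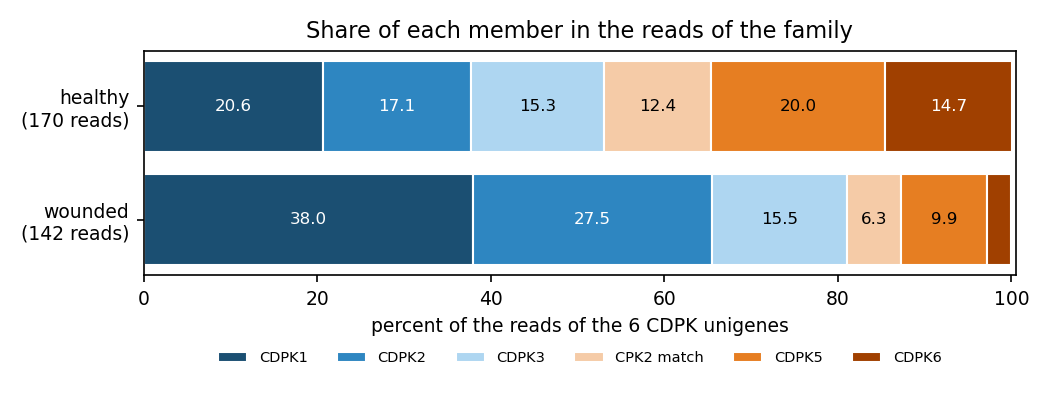
Percent of the reads of the 6 CDPK unigenes (x axis) that each member took in the healthy library (170 reads) and the wounded library (142 reads). The unlabelled segment at the right end of the wounded bar is CDPK6 with 2.8%, and CDPK1 widens from 20.6% to 38.0%.

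Levels of different members were compared per length, in reads per kilobase of unigene and 100000 reads. In H the order was CDPK6 (3.92), CDPK2 (2.90), CDPK1 (2.83), CDPK3 (2.71), CDPK5 (2.54) and the CPK2 match (2.53). No 2 neighbours in this order differed beyond counting error, and even the ends did not, with CDPK6 at 1.55-fold the level of the CPK2 match (95% interval 0.834 to 2.92). In W the order was CDPK1 (4.45), CDPK2 (3.98), CDPK3 (2.34), the CPK2 match (1.11), CDPK5 (1.07) and CDPK6 (0.640). Neighbours again had intervals that span 1, while the ends stood 6.95-fold apart (95% interval 2.56 to 26.4). CDPK6 was thus first in H and last in W. The ends were picked by their rank, and their ratios are given as a description. The unigenes were 1475 bp (CDPK6) to 3097 bp (CDPK5) long, longer than 93.7% to 99.7% of all unigenes, and whether each spans its whole transcript was not tested.

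CDPK5 is the one member whose reads may be divided among several sequences. Its cluster holds 3 unigenes that the assembly program did not merge, and the other 5 members are alone in theirs. The sister Zhang_Cluster60806.seq.Contig1 (1298 bp) had 20 healthy and 18 wounded reads, and its ratio was 0.919, between 0.458 and 1.83 at 95%. The short Zhang_Cluster60806.seq.Contig2 (607 bp) had 4 reads in each library. The odds ratio of Zhang_Cluster60806.seq.Contig1 against CDPK5 was 2.16, between 0.819 and 5.86 at 95%, so a difference between them was not shown. With the reads of the cluster summed, 58 in H and 36 in W, the ratio was 0.634, between 0.406 and 0.977 at 95%, and the call of CDPK5 was lost (P = 0.0300, chi-square test). Of the members 1, CDPK6, was then lower. How reads from stretches that CDPKs have in common were divided between the members was not tested.

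**Figure D4:**
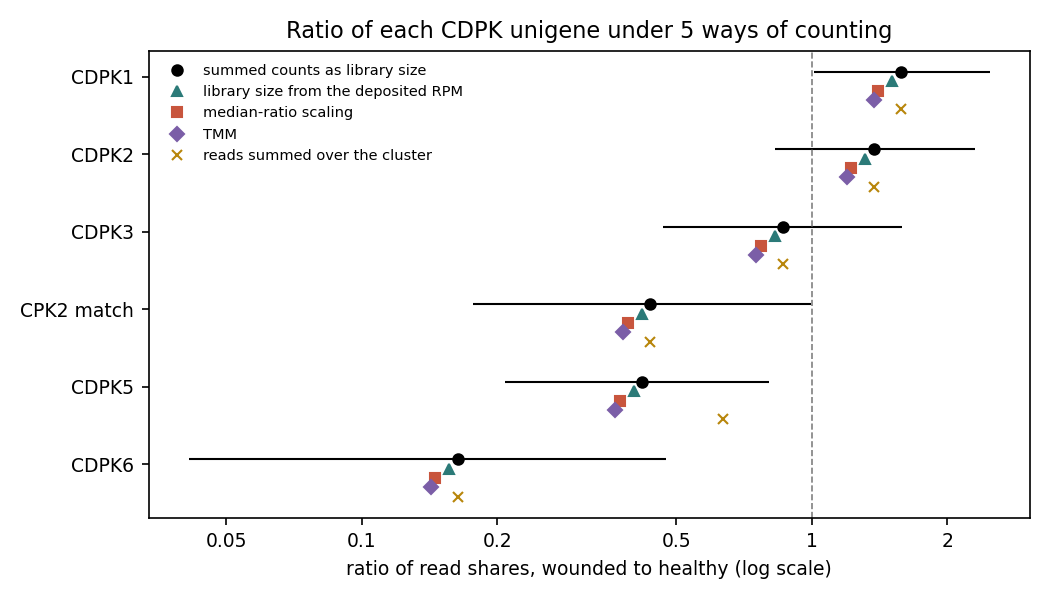
Ratio of read shares, wounded to healthy on a log scale (x axis), for each CDPK unigene under 5 ways of counting, with the exact 95% interval of the ratio from summed counts as a line. Each ratio stays on its side of 1 (dashed), though the scalings lower every ratio and could have changed this for CDPK1 and CDPK2 only. The ratio lies between 1.37 and 1.57 for CDPK1 and between 0.142 and 0.163 for CDPK6. CDPK5 moves to 0.634 when its cluster is summed.

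The direction of each member held under every scaling tried, but this could have failed for CDPK1 and CDPK2 only. Each scaling multiplied every ratio by a factor below 1 (0.957, 0.891 or 0.871). Members with a ratio already below 1 therefore could only move further from it. The ratio of CDPK6 ran from 0.142 with TMM to 0.163 and that of CDPK5 from 0.366 to 0.420, both past the threshold each time. The CPK2 match came nearest to joining them, with a ratio of 0.381 after TMM (P = 0.0118 from the chi-square test). CDPK1 had a ratio of 1.37 after TMM (P = 0.144 from the chi-square test).

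The other calcium genes came from the study's KEGG list of calcium signaling, which the study drew from these same libraries and which holds 0 of the 6 CDPK unigenes. Of 25 identifiers 24 were found, as identifiers without gene names. By the chi-square test 3 were lower in W, 0 were higher and 21 did not pass, against 2.55% and 1.84% of all unigenes called lower and higher and 11.5% and 7.78% of those with at least 10 reads. At an unadjusted P under 0.05 there were 5 lower and 0 higher, against 5.89% and 6.63% of all unigenes and 15.6% and 14.7% of those with at least 10 reads. Cluster58037.seq.Contig1 had 62 healthy and 9 wounded reads and fell 6.75-fold, between 3.34 and 15.4 at 95%. Cluster53146.seq.Contig1 had 44 healthy reads and 0 wounded ones, so its share was at least 14.4-fold lower in W, taking 3 reads as the floor, and the exact 95% interval of the fold began at 11.2. Cluster53146.seq.Contig2, listed from the same cluster, had 12 healthy and 3 wounded reads (P = 0.0224, chi-square test). Both count among the 5, although reads of one transcript can be divided between them. Cluster46113 had 8 and 0 reads, which passed the chi-square test (P = 0.00512) but neither the test with Yates' correction (P = 0.0144) nor adjustment over all unigenes (adjusted P = 0.147), so that 2 unigenes of the list were then lower. The most abundant unigene of the list, Cluster54428.seq.Contig1, had 31 healthy and 45 wounded reads, and its ratio of 1.48 had a 95% interval of 0.917 to 2.42. The median log2 ratio, with 0.5 reads added, was -0.71 over the 24 and -0.68 over the 6 CDPK unigenes, against 0.03 over all unigenes. Over the 10 listed unigenes with at least 10 reads it was -0.41, against 0.15 over all unigenes with as many. With the 6 listed unigenes that lack reads in 1 library set to the floor of 3 reads, and no 0.5 reads added, the median of the list was -0.44. This floor hides the direction of those that had only 2 or 3 reads in the other library. Computed the same way over the listed unigenes with reads in both libraries, the median was also -0.44. Of the 24, 12 had fewer than 7 reads, the fewest with which a unigene can pass, while every CDPK unigene had more.

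The kinases of the mitogen-activated protein kinase (MAPK) cascade form the other kinase group of the primer list. They relay stress signals by phosphorylating one another in sequence, without binding calcium. Of 5 such unigenes 2 were lower in W by the chi-square test, 0 were higher and 3 stayed short of the threshold. The same rule called 11.5% lower and 7.78% higher among unigenes with at least 10 reads, and 2.55% and 1.84% among all. Among unigenes with 29 to 89 reads, a range that holds these kinases except MAPK2, the shares were 18.9% and 10.0%. The limit given for how the study selected its regulators applies here too. The counts at an unadjusted P under 0.05 were also 2 and 0, against 15.6% and 14.7% of unigenes with at least 10 reads. The shares were 22.7% and 17.1% among unigenes with 29 to 89 reads and 5.89% and 6.63% among all. MPKK2 had 33 healthy and 7 wounded reads and fell 4.62-fold, between 2.01 and 12.4 at 95%. MAPK3 had 65 and 24 reads and fell 2.65-fold, between 1.64 and 4.43. MAPK5 and MAPK15 had more reads in W, with 13 and 17 for the former and 14 and 17 for the latter, and MAPK2 had 4 and 1. No difference between the CDPK and MAPK groups was tested.

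**Figure D5:**
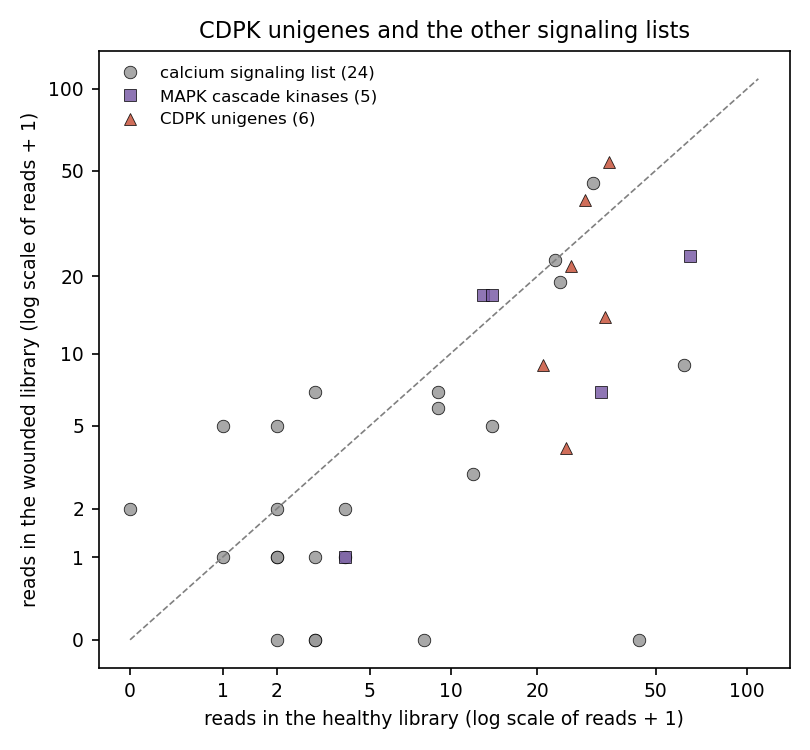
Reads in the healthy library (x axis) and the wounded library (y axis), both on a log scale of reads plus 1, for the 6 CDPK unigenes (triangles), the 24 unigenes of the calcium signaling list (circles) and the 5 MAPK cascade kinases (squares), where points with the same reads lie on top of each other. The dashed line marks equal reads, CDPK1 and CDPK2 lie above it, and the other 4 CDPK unigenes lie below it.

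Among the 24 other named regulators of the primer list, those with the log2 ratio nearest to each member were picked as most alike over the 2 libraries, a likeness of one ratio only. For CDPK6 it was APX1, a cytosolic peroxidase that uses ascorbate to detoxify hydrogen peroxide, with 282 and 44 reads. Its log2 ratio, with 0.5 reads added, was -2.64 against -2.47 for CDPK6. For CDPK5 and the CPK2 match it was APL2, with 29 and 11 reads and a log2 ratio of -1.33 against -1.22 and -1.15. For CDPK3 it was SODA, a mitochondrial manganese superoxide dismutase, with 18 and 15 reads and a log2 ratio of -0.23 against -0.21. For CDPK1 and CDPK2 it was MAPK5, with a log2 ratio of 0.40 against 0.65 and 0.45.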

How the data were processed

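The authors made SMART cDNA from mRNA by oligo(dT) priming and 25 cycles of PCR, removed reads under 100 bp, assembled with MIRA, grouped unigenes by UIcluster 2.0 and merged each cluster where Cap3 allowed (MIRA and Cap3 versions: not given in the sources used here). Priming and PCR without molecular identifiers can alter relative abundance, and reads of one transcript can fall on several unigenes.

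The deposited counts are whole reads per unigene. The deposited RPM values, headed TPM, equal the count plus 1 scaled to a library size of 530438 (H) or 543033 (W), within 0.1 for 100.0% of unigenes. The listed counts are 81.5% and 78.0% of those sizes.

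The reads of each of the 89137 unigenes against all other reads were compared by chi-square without continuity correction, with summed counts as library size and an unadjusted P of 0.01 as threshold. The 95% intervals of ratios are exact (Clopper-Pearson), given the summed reads. Log2 ratios have 0.5 reads added, except in the median of the calcium signaling list with the floor and in the one over reads in both libraries. The floor for a library at 0 was 3 reads. The code was tested on simulated data.

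Genes named were the 6 members, their cluster sisters, the calcium signaling unigenes that passed, the MAPK cascade kinases, and the primer-list regulator nearest to each member in log2 ratio. Cluster54428.seq.Contig1 and Cluster53146.seq.Contig2 were added after their values were seen. Members and lists were chosen with earlier results of these data known, and the background of 29 to 89 reads was chosen after seeing the data. The alternatives were Fisher's test, the Yates correction, adjustment by Benjamini-Hochberg or Bonferroni, library sizes from RPM, median ratios or TMM, sums over clusters, a 10-read minimum, and sums without each member. The software was edgeR 4.0.16 (TMM factors only) in R 4.3.3, and scipy 1.17.1, pandas 2.3.3, numpy 2.4.6 and matplotlib 3.10.9 in Python 3.11.15.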

Additional observations from a re-analysis of the deposited data

How the results depend on the processing

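Of 119 recomputed values, 107 met the rule for little change, which was the same direction and side of the threshold for a tested ratio or of 1 for the interval of a pair, a count within 1.5 times the reported one, or a summed ratio within its reported 95% interval. Part of the 107 could not have changed, so the tally does not measure stability. Adjustment cannot bring in a member that did not pass, and 5 members are alone in their cluster, where summing repeats the same reads. Among these 107 the calcium signaling count went from 3 to 2 lower with Yates' correction and with Benjamini-Hochberg adjustment, the count of members at least 2-fold lower went from 3 to 2 with the CDPK5 cluster summed, and the interval of the family's summed ratio moved below 1 with median-ratio scaling (0.759) and TMM (0.742). The call of CDPK5 (ratio 0.420) was lost with Benjamini-Hochberg adjustment over all unigenes (adjusted P = 0.147, chi-square test), with adjustment over unigenes of at least 10 reads (adjusted P = 0.0300) and, at a ratio of 0.634, with its cluster summed (P = 0.0300). In each of these 3 settings 1 member was lower in place of 2. With Bonferroni adjustment CDPK6 (ratio 0.163) lost its call too, which left 0 members. Over the other scalings, Fisher's test and the Yates correction, P ran from 0.000964 to 0.00755 for CDPK5 and from 2.4e-05 to 0.000253 for CDPK6. The summed ratio of the family was 0.665 without CDPK1. With another member left out in its place it ran from 0.746 without CDPK2 to 0.9715 without CDPK6. With the cluster summed, CDPK1 against CDPK5 gave an odds ratio of 2.47, whose interval over 15 pairs reached below 1, and the CPK2 match against CDPK5 turned from 1.04 to 0.693, with no interval that lay above 1 in either case. No paired analysis was possible because each condition has 1 library. Depth limits the CPK2 match and CDPK6 most, with 30 and 29 reads.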
